A study of Mus musculus with 8 samples.

Results

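Interferon-stimulated genes are the genes that cells switch on when an interferon binds its receptor, and 36 of them, chosen by gene name, were examined among the 56748 genes of the count table. All 36 names had 1 row each, and all 36 passed the filter on low counts, as did 16780 genes of the table. The 8 libraries were polyA RNA-seq libraries of whole mouse hearts, each taken 7 days after transverse aortic constriction, an operation that narrows the aorta and loads the left ventricle with pressure. In the 4 CMS7KO hearts, Smad7 was to be excised in cardiomyocytes by a Cre recombinase expressed from the alpha myosin heavy chain (aMHC) promoter. The 4 ACRE hearts were the aMHC Cre+ controls, so both groups carried the Cre transgene and both were constricted, and no unoperated or Cre-free heart was analysed here. Mice of both groups were labelled C56BL, 3 to 4 months old and of both sexes, with libraries 1 and 2 of each group labelled male and libraries 3 and 4 labelled female. The promoter limits excision to cardiomyocytes, whereas a whole-heart library also holds RNA of every other cell type of the heart, in which Smad7 was not targeted.

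Type I and type III interferons signal through the kinases Jak1 and Tyk2 to a complex that includes Stat2 and Irf9 and binds the interferon-stimulated response element (ISRE) in the promoters of its target genes. Type II interferon, interferon gamma, acts mainly through the gamma-activated site (GAS), and its typical targets include Irf1, the guanylate-binding proteins and the immunity-related GTPases. The products of the induced genes sense viral nucleic acid, block viral entry, translation and replication, attach the ubiquitin-like protein Isg15 to other proteins and feed back on the pathway. In the injured heart, macrophages and other leukocytes are a known source of interferon-stimulated transcripts, and endothelial cells, fibroblasts and cardiomyocytes can respond to interferon too.

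The sequences below show the response elements in members on which the results turn: Isg15, Ifit1, Ifit3, Rsad2 and Bst2 as antiviral genes of the type I response, and Igtp and Irgm1 as GTPase genes that stood out in single libraries. Each is the 250 bases before the gene's start on its own strand, from RefSeq on GRCm38.p6. Capitals mark every match to the ISRE-type pattern, GAAA followed by any 2 bases and GAAA again, on either strand.
Isg15: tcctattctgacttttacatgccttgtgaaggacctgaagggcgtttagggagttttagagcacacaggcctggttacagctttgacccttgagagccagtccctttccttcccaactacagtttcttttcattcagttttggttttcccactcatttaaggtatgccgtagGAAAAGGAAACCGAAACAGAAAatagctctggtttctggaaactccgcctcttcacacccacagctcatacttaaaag
Ifit1: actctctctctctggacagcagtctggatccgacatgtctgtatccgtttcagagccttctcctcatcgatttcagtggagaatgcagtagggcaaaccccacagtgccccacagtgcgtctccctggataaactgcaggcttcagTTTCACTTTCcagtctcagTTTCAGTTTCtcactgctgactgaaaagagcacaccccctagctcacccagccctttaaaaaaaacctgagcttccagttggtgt
Ifit3: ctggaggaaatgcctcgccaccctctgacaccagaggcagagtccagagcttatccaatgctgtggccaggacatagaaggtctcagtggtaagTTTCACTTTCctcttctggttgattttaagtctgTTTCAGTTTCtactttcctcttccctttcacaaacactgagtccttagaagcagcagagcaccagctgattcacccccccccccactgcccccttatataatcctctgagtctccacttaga
Rsad2: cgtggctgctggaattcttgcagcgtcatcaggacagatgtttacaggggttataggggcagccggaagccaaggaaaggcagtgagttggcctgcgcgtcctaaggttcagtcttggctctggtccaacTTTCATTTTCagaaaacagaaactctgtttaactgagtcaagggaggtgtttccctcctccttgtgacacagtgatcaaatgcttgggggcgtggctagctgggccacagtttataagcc
Bst2: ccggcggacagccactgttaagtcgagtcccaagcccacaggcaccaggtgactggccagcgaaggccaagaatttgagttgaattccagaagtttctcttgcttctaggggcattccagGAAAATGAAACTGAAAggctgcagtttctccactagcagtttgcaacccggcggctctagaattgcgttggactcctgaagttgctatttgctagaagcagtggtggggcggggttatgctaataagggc
Igtp: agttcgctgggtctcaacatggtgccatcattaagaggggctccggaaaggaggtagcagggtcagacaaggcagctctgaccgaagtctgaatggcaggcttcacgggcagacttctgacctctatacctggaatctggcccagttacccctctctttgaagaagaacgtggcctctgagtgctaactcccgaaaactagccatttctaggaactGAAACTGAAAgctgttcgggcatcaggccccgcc
Irgm1: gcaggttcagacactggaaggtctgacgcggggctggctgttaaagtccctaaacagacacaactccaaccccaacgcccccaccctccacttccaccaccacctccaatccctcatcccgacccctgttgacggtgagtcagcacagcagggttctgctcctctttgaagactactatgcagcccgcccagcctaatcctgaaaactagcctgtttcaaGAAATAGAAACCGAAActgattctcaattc
The windows lie at chr4:156200819-156201068 (minus strand) for Isg15, chr19:34640639-34640888 (plus strand) for Ifit1, chr19:34583279-34583528 (plus strand) for Ifit3 and chr12:26456453-26456702 (minus strand) for Rsad2. Those of Bst2, Igtp and Irgm1 lie at chr8:71537473-71537722 (minus strand), chr11:58199306-58199555 (plus strand) and chr11:48871421-48871670 (minus strand). Counted from the gene's start to the first base of the match, the capitals begin 78 bases upstream in Isg15, 120 in Rsad2, 130 in Bst2, 34 in Igtp and 30 in Irgm1. Ifit1 has a match at 104 and another at 85 bases, and Ifit3 at 156 and 122 bases.

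A RefSeq window from 250 bases before to 50 bases after the start was found for 27 of the 36 members. Of these, 14 (51.9%) held at least 1 match to the ISRE-type pattern on either strand, compared with 1079 of 27025 genes with a window (3.99%). The other members with a match were Stat2, Ifih1 (after the start only), Oas1a, Oas3, Gbp2, Gbp3 and Gbp7. The GAS-type pattern TTCNNNGAA, which reads the same on both strands, was present in 7 of the 27 members (25.9%), compared with 9.55% of all genes with a window. A match describes the letters of these windows and does not show that a factor binds there.

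The members were spread over 13 chromosomes, with 8 on chromosome 11 and 5 on chromosome 5, and several lie next to their relatives. In the table's own coordinates, whose build could not be matched to the reference annotation, Ifit2, Ifit3 and Ifit1 lie on chromosome 19 between 34528094 and 34627409, and Gbp7, Gbp3 and Gbp2 on chromosome 3 between 142236103 and 142343769. Oas2, Oas3 and Oas1a lie on chromosome 5 between 120868398 and 121045584, and Rsad2 and Cmpk2, neighbours on chromosome 12, occupy 26492745 to 26506451 and 26519203 to 26529836. Igtp (chromosome 11, 58090382 to 58098417) overlaps Irgm2 on the same strand, Irf9 overlaps Rnf31 and Ifi47 overlaps Olfr56 likewise, and Irf7 and Rtp4 overlap Phrf1 and Masp1 on the other strand. The sources used here do not give the strand setting of the counting, so the counts of these genes, and of members with near-identical copies (Ifit1, Ifit3, Oas1a, Gbp2 and Ifi27l2a), are uncertain.

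The libraries held 12920435 to 17199600 reads in genes, and the members 12 to 1795 reads in a library, with Oas3 and Zbp1 the least deeply covered. Mitochondrial genes took 16.4% to 23.5% of the reads. Smad7, the targeted gene and the inhibitor of TGF-beta receptor signalling, had 30.9, 41.9, 38.9 and 43.1 CPM in CMS7KO libraries 1 to 4, against 34.6, 34.5, 32.7 and 23.9 CPM in ACRE libraries 1 to 4 (reads per 1000000 in genes, scaled by TMM factors). Its mean was not lower in CMS7KO hearts, at 38.7 ± 5.47 CPM in CMS7KO and 31.4 ± 5.07 CPM in ACRE (SD, n = 4 each). The log2 fold change was 0.30 (SE 0.18, adjusted p = 0.415), and permuting the genotype labels over all 70 assignments gave an exact two-sided p of 0.114, where 0.0286 is the smallest p possible with 4 against 4. Counts over the whole gene in whole heart therefore do not check the genotype labels, and the group is called the libraries labelled CMS7KO. Both libraries 3 go against their female label: Xist was at 0.569 CPM in CMS7KO 3 and 0.314 CPM in ACRE 3, compared with 837 CPM in CMS7KO 4 and 362 CPM in ACRE 4, and the Y-linked gene Ddx3y was at 84.2 and 89.1 CPM in them. ACRE 2 and ACRE 4 stood apart from the other libraries, with summed CPM of 8 endothelial markers of 1358 and 1729, compared with 2059 to 2557 in CMS7KO and 2760 and 3033 in ACRE 1 and ACRE 3. The 10 cardiomyocyte markers summed to 33440 to 54170 CPM in CMS7KO, against 78620 and 100600 CPM in ACRE 2 and ACRE 4 and 55990 and 46290 CPM in ACRE 1 and ACRE 3, and none was at 0 in any library. Of these markers only Myh6, Actc1, Ryr2 and Atp2a2 were highest in both ACRE 2 and ACRE 4. Tnni3, for example, had 2565 and 3210 CPM there, against 4150 and 3276 CPM in ACRE 1 and ACRE 3.

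No interferon-stimulated gene among the 36 passed the test of the libraries labelled CMS7KO against ACRE. The highest estimates were those of Mx1, Ifi27l2a and Ifi47, with log2 fold changes of 0.76 (SE 0.39), 0.73 (SE 0.29) and 0.64 (SE 0.33), and the lowest those of Mx2 and Oasl1, with -0.41 (SE 0.28) and -0.39 (SE 0.42). Ifit3, Cmpk2, Rtp4 and Ifi44 had estimates within 0.03 of 0. At an adjusted p below 0.05 by edgeR's quasi-likelihood test with Benjamini-Hochberg adjustment over all genes tested, 0 members were called higher and 0 lower, compared with 0.0179% of all genes called higher and 0.0179% lower. DESeq2 and limma voom called 0 members as well, although DESeq2 called 1.66% of all genes higher and 1.23% lower, while limma voom called 0.0179% and 0.0119%. At an unadjusted p below 0.05, edgeR found 1 member higher (Ifi27l2a) and 0 lower, compared with 7.12% and 8.20% of all genes. The smallest adjusted p of a member was 0.308.

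The estimates leaned to the positive side: 28 members had a log2 fold change above 0 and 8 below, with a median of 0.23 and a range of -0.41 to 0.76, whereas 49.4% of all genes tested were above 0 and their median was -0.01. In no member did all 4 CMS7KO libraries lie above, or all below, all 4 ACRE libraries, although 5.41% of all genes tested lay wholly above and 4.18% wholly below, 9.59% in all. For 14 members all 4 CMS7KO values lay within the range of the ACRE values, compared with 24.2% of all genes. The median depended on which libraries were kept. ACRE 2 and ACRE 4 had the lowest member sums of the 4 ACRE libraries, so leaving both out raises the ACRE side by construction. Without these 2 libraries, 12 members were above 0 and 24 below, the members' median was -0.07 and that of all genes 0.01, and 0 members were called while 0.481% of all genes were called higher and 0.498% lower. In that fit Trim25, Mx2, Oasl1, Rsad2 and Cmpk2 had an unadjusted p below 0.05, all lower in CMS7KO, compared with 6.55% of all genes higher and 5.69% lower. Without CMS7KO 4, 20 members were above 0 and 16 below, with a median of 0.10. Other single libraries also moved the median by over 1.5 times, to 0.48 without ACRE 1, 0.06 without ACRE 2, 0.35 without CMS7KO 1 and 0.14 without CMS7KO 2. Without ACRE 4 alone the median was 0.17, with 28 members above 0 and 8 below.

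**Figure D1:**
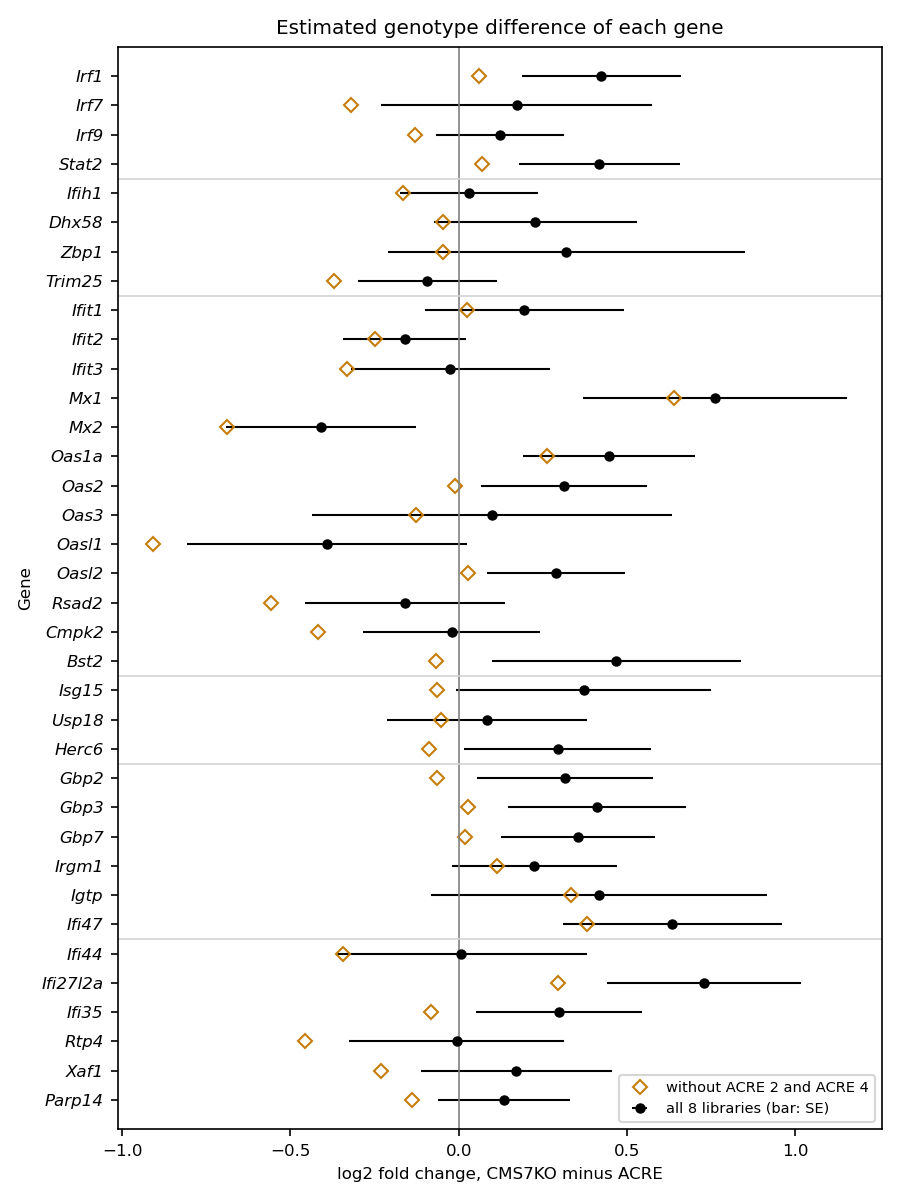
Estimated log2 fold change (CMS7KO minus ACRE) of each of the 36 genes, with filled points for the fit on all 8 libraries (bars are SE) and open diamonds for the fit without ACRE 2 and ACRE 4. With all libraries 28 points lie above 0 and 8 below; without ACRE 2 and ACRE 4, 12 lie above 0 and 24 below.

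The 4 regulators were all estimated above 0, with a median log2 fold change of 0.30, and none was called. Irf1, an early transcription factor of the interferon gamma response, had 43.3, 50.7, 49.1 and 57.1 CPM in CMS7KO libraries 1 to 4, against 49.0, 25.1, 46.6 and 28.1 CPM in ACRE libraries 1 to 4. Its mean was 50.1 ± 5.66 CPM in CMS7KO and 37.2 ± 12.4 CPM in ACRE (SD, n = 4 each); the log2 fold change was 0.42 (SE 0.24, adjusted p = 0.401). The 4 CMS7KO values were close together, while ACRE 2 and ACRE 4 were low and ACRE 1 and ACRE 3 were within the CMS7KO range. Stat2, the Stat partner that gives the type I complex its transactivation domain, had 59.2, 78.7, 64.3 and 78.8 CPM in CMS7KO libraries 1 to 4, against 68.5, 34.9, 65.2 and 41.5 CPM in ACRE libraries 1 to 4. Its mean was 70.2 ± 10.02 CPM in CMS7KO and 52.5 ± 16.8 CPM in ACRE (SD, n = 4 each); the log2 fold change was 0.42 (SE 0.24, adjusted p = 0.412). As with Irf1, only ACRE 2 and ACRE 4 lay below every CMS7KO library. Irf7, which amplifies type I interferon production and was picked for its spread after the values were seen, had 27.1, 42.8, 27.0 and 32.8 CPM in CMS7KO libraries 1 to 4, against 52.8, 10.5, 30.3 and 21.6 CPM in ACRE libraries 1 to 4. ACRE 1 was the highest and ACRE 2 the lowest of all 8, so the ACRE range enclosed that of CMS7KO, and the log2 fold change was 0.17 (SE 0.40, adjusted p = 0.854). Irf9, the DNA-binding subunit of the type I complex, averaged 44.97 ± 5.70 CPM in CMS7KO and 41.3 ± 9.06 CPM in ACRE (SD, n = 4 each).

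Of the 4 sensors and cofactors, 3 were estimated above 0 and 1 below, with a median of 0.13; with library totals in place of TMM factors, all 4 were above 0. Trim25, the ubiquitin ligase that activates the RNA sensor RIG-I and 1 of the 6 members with the highest level per kilobase, had 74.8, 91.0, 80.00 and 64.4 CPM in CMS7KO libraries 1 to 4, against 105, 63.4, 95.0 and 66.7 CPM in ACRE libraries 1 to 4. Its mean was 77.5 ± 11.1 CPM in CMS7KO and 82.6 ± 20.6 CPM in ACRE (SD, n = 4 each); the log2 fold change was -0.094 (SE 0.21, adjusted p = 0.842). All 4 CMS7KO values fell between those of ACRE 2 and ACRE 1. Ifih1, the gene of the double-stranded RNA sensor MDA5, averaged 22.9 ± 3.02 CPM in CMS7KO and 22.5 ± 5.24 CPM in ACRE (SD, n = 4 each), and Dhx58, the gene of its regulator LGP2, averaged 7.68 ± 2.14 CPM in CMS7KO and 6.55 ± 1.95 CPM in ACRE (SD, n = 4 each). Zbp1, a sensor of Z-form nucleic acid that can start necroptosis, is given after its values were seen: it had 3.55, 3.94, 1.96 and 10.6 CPM in CMS7KO libraries 1 to 4, against 6.202, 2.01, 3.71 and 3.57 CPM in ACRE libraries 1 to 4. CMS7KO 4 was the highest of all 8 libraries and CMS7KO 3 the lowest, so the spread within CMS7KO exceeded the difference between the means.

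The 13 antiviral effectors were split, 7 above 0 and 6 below, with a median of 0.10, and Ifit3 and Cmpk2 turned positive with library totals or upper-quartile factors in place of TMM factors. The Ifit proteins bind viral RNA and hold back its translation. Ifit3 had 21.5, 28.1, 17.8 and 35.7 CPM in CMS7KO libraries 1 to 4, against 37.6, 15.9, 27.5 and 23.8 CPM in ACRE libraries 1 to 4. Its mean was 25.8 ± 7.89 CPM in CMS7KO and 26.2 ± 9.02 CPM in ACRE (SD, n = 4 each); the log2 fold change was -0.025 (SE 0.30, adjusted p = 0.977). ACRE 1 and ACRE 2 were the highest and the lowest library, with all of CMS7KO between them. Ifit1, which recognises RNA lacking a normal cap, averaged 17.3 ± 6.11 CPM in CMS7KO and 15.2 ± 3.93 CPM in ACRE (SD, n = 4 each), and Ifit2 averaged 40.3 ± 8.68 CPM in CMS7KO and 44.8 ± 5.37 CPM in ACRE (SD, n = 4 each).

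The Oas enzymes make 2-5A, the second messenger that activates RNase L, while the Oas-like proteins have other antiviral roles. Oas1a had 8.33, 10.01, 7.52 and 14.5 CPM in CMS7KO libraries 1 to 4, against 8.72, 6.24, 7.98 and 6.47 CPM in ACRE libraries 1 to 4, with CMS7KO 4 the highest library. Its mean was 10.1 ± 3.12 CPM in CMS7KO and 7.35 ± 1.19 CPM in ACRE (SD, n = 4 each); the log2 fold change was 0.45 (SE 0.26, adjusted p = 0.41). Oas2 had 40.7, 53.0, 51.6 and 56.3 CPM in CMS7KO libraries 1 to 4, against 58.7, 25.4, 42.8 and 35.0 CPM in ACRE libraries 1 to 4. Its mean was 50.4 ± 6.76 CPM in CMS7KO and 40.5 ± 14.1 CPM in ACRE (SD, n = 4 each); the log2 fold change was 0.31 (SE 0.25, adjusted p = 0.536). ACRE 2 and ACRE 4 were again the lowest libraries, and ACRE 1 was above every CMS7KO library. Oasl2 had 30.4, 43.4, 38.0 and 43.7 CPM in CMS7KO libraries 1 to 4, against 38.6, 22.9, 37.4 and 28.2 CPM in ACRE libraries 1 to 4. Its mean was 38.9 ± 6.26 CPM in CMS7KO and 31.8 ± 7.55 CPM in ACRE (SD, n = 4 each); the log2 fold change was 0.29 (SE 0.20, adjusted p = 0.49). The groups overlapped in all 3 genes. Oas3 was the member with the lowest level per kilobase, at 0.293 CPM per kb over the 8 libraries, and averaged 2.19 ± 1.67 CPM in CMS7KO and 1.95 ± 0.684 CPM in ACRE (SD, n = 4 each). Oasl1, which in mice represses translation of Irf7, averaged 4.16 ± 0.875 CPM in CMS7KO and 5.58 ± 3.65 CPM in ACRE (SD, n = 4 each), with ACRE 1 alone at 10.8 CPM.

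Mx1 and Mx2, dynamin-like GTPases that trap viral nucleoprotein, had the highest and the lowest estimates of all 36 members. Many inbred laboratory strains carry defective Mx1 alleles. Mx1 had 4.85, 5.50, 4.74 and 10.9 CPM in CMS7KO libraries 1 to 4, against 5.56, 2.28, 2.64 and 4.54 CPM in ACRE libraries 1 to 4. Its mean was 6.501 ± 2.96 CPM in CMS7KO and 3.75 ± 1.56 CPM in ACRE (SD, n = 4 each); the log2 fold change was 0.76 (SE 0.39, adjusted p = 0.372). CMS7KO 4 had 1.98 times the next CMS7KO library, and without it the log2 fold change was 0.39. Mx2 had 4.71, 6.85, 4.99 and 4.93 CPM in CMS7KO libraries 1 to 4, against 9.01, 4.29, 8.29 and 6.95 CPM in ACRE libraries 1 to 4. Its mean was 5.37 ± 0.993 CPM in CMS7KO and 7.14 ± 2.08 CPM in ACRE (SD, n = 4 each); the log2 fold change was -0.41 (SE 0.28, adjusted p = 0.481). ACRE 1, ACRE 3 and ACRE 4 were above all CMS7KO libraries, while ACRE 2 was below all of them.

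Bst2, tetherin, which holds budding virions at the cell surface, had 42.6, 53.3, 43.5 and 61.4 CPM in CMS7KO libraries 1 to 4, against 59.1, 15.8, 46.1 and 23.8 CPM in ACRE libraries 1 to 4. Its mean was 50.2 ± 8.89 CPM in CMS7KO and 36.2 ± 19.96 CPM in ACRE (SD, n = 4 each); the log2 fold change was 0.47 (SE 0.37, adjusted p = 0.536). ACRE 1 exceeded 3 of the 4 CMS7KO libraries and ACRE 2 and ACRE 4 were far below them, so the SD was wider in ACRE. Rsad2, viperin, which makes a chain-terminating nucleotide, is given after its values were seen: it had 36.5, 45.3, 33.9 and 59.9 CPM in CMS7KO libraries 1 to 4, against 66.8, 27.0, 61.6 and 40.3 CPM in ACRE libraries 1 to 4. ACRE 1 and ACRE 3 were the highest libraries and ACRE 2 the lowest; the log2 fold change was -0.16 (SE 0.30, adjusted p = 0.809). Cmpk2, the mitochondrial kinase encoded next to it, averaged 23.2 ± 2.69 CPM in CMS7KO and 23.5 ± 8.74 CPM in ACRE (SD, n = 4 each). Without ACRE 2, ACRE 4 and CMS7KO 4, a set of libraries left out after seeing the data, Rsad2 was the 1 member called, lower in CMS7KO (log2 fold change -0.77, edgeR adjusted p = 0.0415), in a fit that called 0.754% of all genes higher and 0.839% lower.

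**Figure D2:**
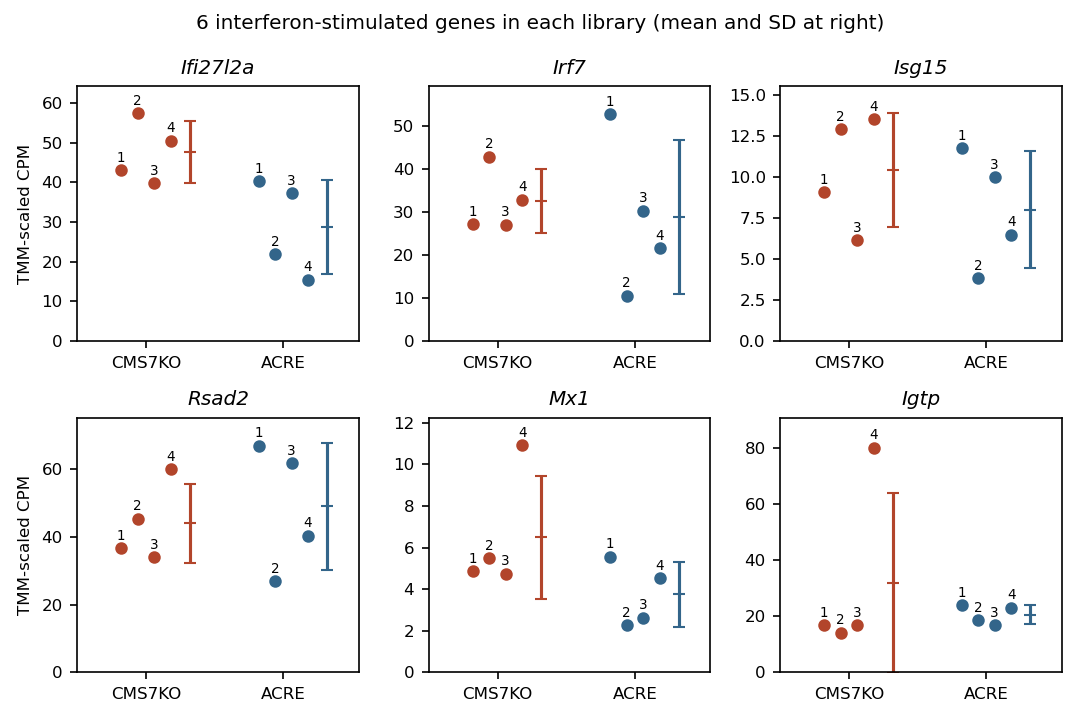
TMM-scaled CPM of 6 genes in each library, CMS7KO left and ACRE right, on linear axes that start at 0; points are libraries with their number and the marker at right is the mean with SD (n = 4 each), which for Igtp in CMS7KO is cut at 0. In every panel the points of the groups overlap.

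The Isg15 system had 3 members, all estimated above 0, with a median of 0.29. Isg15, the ubiquitin-like modifier and given after its values were seen, had 9.06, 12.9, 6.13 and 13.5 CPM in CMS7KO libraries 1 to 4, against 11.8, 3.82, 9.99 and 6.47 CPM in ACRE libraries 1 to 4. ACRE 2 was the lowest library and CMS7KO 4 the highest; the log2 fold change was 0.37 (SE 0.38, adjusted p = 0.635). Usp18, which removes Isg15 from proteins and restrains the type I receptor, averaged 9.35 ± 2.87 CPM in CMS7KO and 8.78 ± 2.56 CPM in ACRE (SD, n = 4 each). Herc6, the ligase that attaches Isg15 in mice, averaged 18.4 ± 1.80 CPM in CMS7KO and 15.00 ± 5.95 CPM in ACRE (SD, n = 4 each).

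All 6 interferon-induced GTPases were estimated above 0, with a median of 0.38, the highest of the 6 groups of members, and none was called. The guanylate-binding proteins attack the membranes around intracellular pathogens. Gbp2 had 38.9, 44.2, 37.5 and 50.8 CPM in CMS7KO libraries 1 to 4, against 42.8, 19.0, 46.7 and 29.6 CPM in ACRE libraries 1 to 4. Its mean was 42.9 ± 6.05 CPM in CMS7KO and 34.5 ± 12.7 CPM in ACRE (SD, n = 4 each); the log2 fold change was 0.32 (SE 0.26, adjusted p = 0.555). CMS7KO 4 was the highest library, ACRE 2 the lowest and ACRE 4 the second lowest, and ACRE 3 exceeded 3 CMS7KO libraries. Gbp3 had 36.4, 46.6, 37.6 and 51.0 CPM in CMS7KO libraries 1 to 4, against 45.3, 19.9, 38.8 and 24.9 CPM in ACRE libraries 1 to 4. Its mean was 42.9 ± 7.06 CPM in CMS7KO and 32.2 ± 11.8 CPM in ACRE (SD, n = 4 each); the log2 fold change was 0.41 (SE 0.26, adjusted p = 0.451). The same libraries were highest and lowest as for its neighbour Gbp2. Gbp7 had 41.7, 47.6, 45.4 and 54.3 CPM in CMS7KO libraries 1 to 4, against 45.6, 22.2, 47.5 and 32.7 CPM in ACRE libraries 1 to 4. Its mean was 47.3 ± 5.30 CPM in CMS7KO and 37.0 ± 11.8 CPM in ACRE (SD, n = 4 each); the log2 fold change was 0.35 (SE 0.23, adjusted p = 0.452). Here too CMS7KO 4 was highest and ACRE 2 lowest, and the groups overlapped.

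The immunity-related GTPases guard or rupture the vacuoles of intracellular parasites. Ifi47 had 7.03, 8.35, 8.59 and 15.8 CPM in CMS7KO libraries 1 to 4, against 8.60, 3.49, 6.09 and 6.76 CPM in ACRE libraries 1 to 4. Its mean was 9.95 ± 3.99 CPM in CMS7KO and 6.23 ± 2.12 CPM in ACRE (SD, n = 4 each); the log2 fold change was 0.64 (SE 0.33, adjusted p = 0.369). CMS7KO 4 was the highest library at 1.84 times the next CMS7KO value. Igtp, also called Irgm3 and described after its values were seen, had 16.8, 14.2, 16.9 and 80.2 CPM in CMS7KO libraries 1 to 4, against 23.99, 18.6, 16.8 and 23.1 CPM in ACRE libraries 1 to 4. Of these libraries 7 lay between 14.2 and 23.99 CPM, and CMS7KO 4 stood at 80.2 CPM, 4.75 times the next CMS7KO library. The log2 fold change was 0.42 (SE 0.50, adjusted p = 0.688), and without CMS7KO 4 it was -0.38 (edgeR adjusted p = 0.486). Irgm1 had 28.8, 42.8, 30.3 and 62.9 CPM in CMS7KO libraries 1 to 4, against 38.3, 26.2, 36.9 and 38.8 CPM in ACRE libraries 1 to 4, again with CMS7KO 4 highest, and without that library its log2 fold change was -0.05, against 0.22 with it.

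Of the 6 other members, 5 were estimated above 0 and 1 below, with a median of 0.15; the 1 below, Rtp4, turned positive and Ifi44 turned negative under other scalings. Ifi27l2a, which encodes a small hydrophobic protein, had the highest level per kilobase of all members, 82.5 CPM per kb, and the smallest p. It had 43.0, 57.4, 39.8 and 50.4 CPM in CMS7KO libraries 1 to 4, against 40.3, 21.9, 37.2 and 15.5 CPM in ACRE libraries 1 to 4. Its mean was 47.6 ± 7.90 CPM in CMS7KO and 28.7 ± 11.9 CPM in ACRE (SD, n = 4 each); the log2 fold change was 0.73 (SE 0.29, adjusted p = 0.308), with an unadjusted p of 0.0309. The groups overlapped by 1 library, since ACRE 1 was just above CMS7KO 3. Ifi35 had 24.7, 29.9, 28.1 and 31.0 CPM in CMS7KO libraries 1 to 4, against 31.9, 16.4, 28.1 and 15.9 CPM in ACRE libraries 1 to 4. Its mean was 28.4 ± 2.75 CPM in CMS7KO and 23.1 ± 8.16 CPM in ACRE (SD, n = 4 each); the log2 fold change was 0.30 (SE 0.25, adjusted p = 0.558). ACRE 2 and ACRE 4 were the lowest libraries and ACRE 1 the highest. Parp14, a mono-ADP-ribosyltransferase, averaged 69.8 ± 3.33 CPM in CMS7KO and 63.9 ± 18.1 CPM in ACRE (SD, n = 4 each), Xaf1, a pro-apoptotic protein, averaged 31.7 ± 4.42 CPM in CMS7KO and 28.1 ± 11.2 CPM in ACRE (SD, n = 4 each), Ifi44 averaged 10.3 ± 3.24 CPM in CMS7KO and 10.3 ± 4.34 CPM in ACRE (SD, n = 4 each), and Rtp4, a chaperone of G protein-coupled receptors, averaged 14.8 ± 4.00 CPM in CMS7KO and 14.7 ± 6.44 CPM in ACRE (SD, n = 4 each).

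Per kilobase of gene length, member levels ran from 0.293 CPM per kb (Oas3) to 82.5 (Ifi27l2a). After Ifi27l2a the highest were Bst2 with 47.8, Gbp2 with 15.4, Ifi35 and Ifit3 with 14.9 each, and Trim25 with 13.9 CPM per kb. The last 4 differ from each other by less than their spread over libraries.

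The spread within a genotype was wider in ACRE for 28 of the 36 members. The highest library exceeded the lowest by a median of 1.52 times among CMS7KO and 2.21 times among ACRE, with highest ratios of 5.64 and 5.01. The share of all genes with a wider spread in ACRE was not computed, so the wider spread is not shown to be particular to the members. Every endothelial marker was also wider in ACRE, for example Tie1 with ratios of 1.43 in CMS7KO and 2.70 in ACRE. Every fibroblast marker was instead wider in CMS7KO, for example Postn with ratios of 3.54 in CMS7KO and 1.82 in ACRE. The CPM of all 36 members summed to 917, 1172, 967 and 1289 in CMS7KO libraries 1 to 4, against 1252, 622, 1077 and 787 in ACRE libraries 1 to 4. ACRE 2 was the lowest of the 8 libraries for 27 members, compared with 20.2% of all genes, and ACRE 1 was the highest ACRE library for 32, compared with 23.2%.

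**Figure D3:**
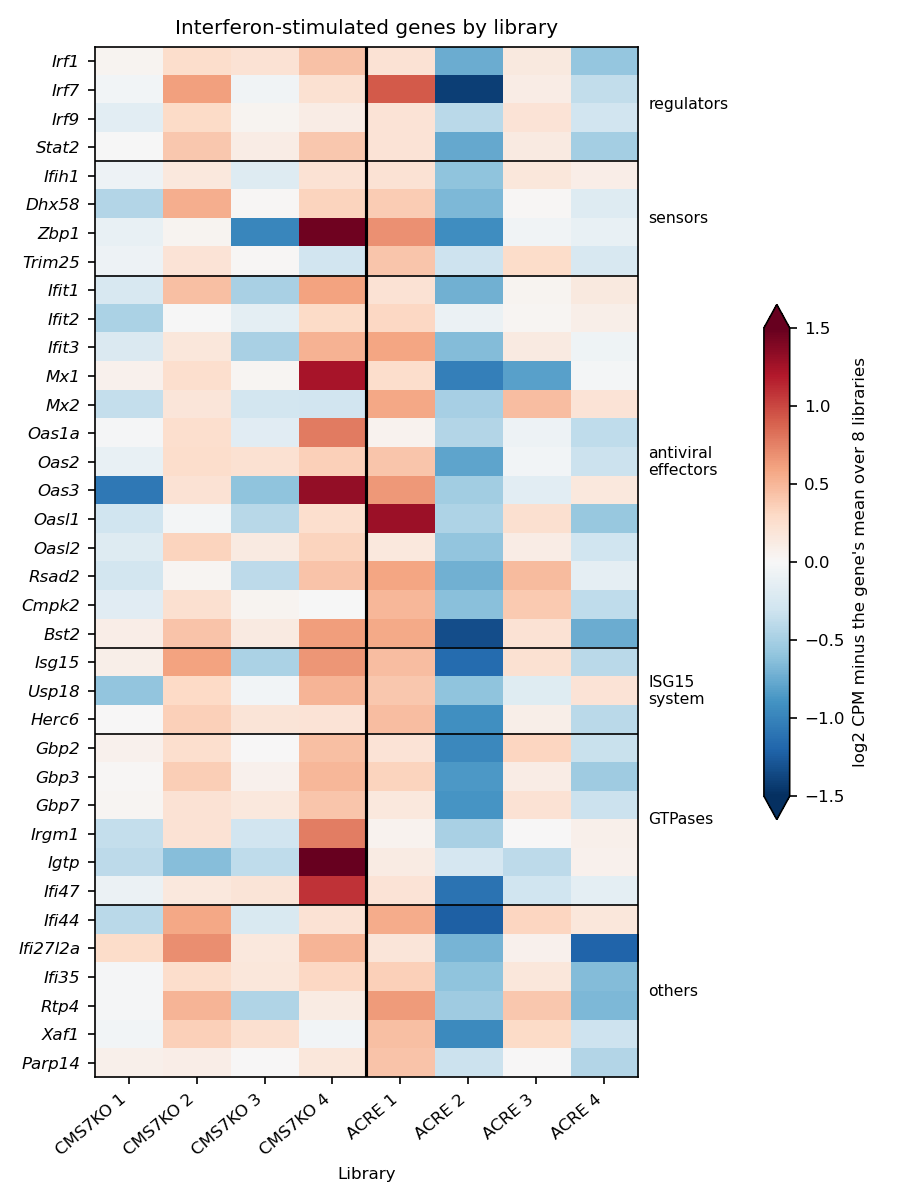
log2 CPM of the 36 genes minus each gene's mean over the 8 libraries, with genes grouped by role down the page and CMS7KO libraries left of ACRE libraries. ACRE 2 is the lowest library for 27 genes, and CMS7KO 4 or ACRE 1 is the highest for 32.

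Endothelial markers had the same libraries at the low end: ACRE 2 and ACRE 4 were the 2 lowest for 19 of 36 members and for all 8 endothelial markers (Pecam1, Cdh5, Kdr, Tie1, Tek, Egfl7, Flt1 and Emcn), compared with 19.5% of all genes. At the high end they differed, since CMS7KO 4 was highest for 17 members and 0 of the 8 endothelial markers. The endothelial sum was 2059, 2557, 2463 and 2183 CPM in CMS7KO libraries 1 to 4, against 2760, 1358, 3033 and 1729 CPM in ACRE libraries 1 to 4. The cardiomyocyte sums given above were highest in ACRE 2 and ACRE 4, which held for only some of those markers. Macrophage and monocyte markers had another order, with sums of 1027, 963, 1092 and 1177 CPM in CMS7KO, against 622, 834, 695 and 480 CPM in ACRE, which do not overlap. Of those 12 markers 11 were estimated above 0, compared with 49.4% of all genes, and 7 lay wholly above ACRE, compared with 5.41%. Fibroblast markers summed to 3285 to 7124 CPM in CMS7KO and 2375 to 3261 CPM in ACRE, with all 8 estimated above 0 and 3 wholly above. Neutrophil markers summed to 8.19 to 18.7 CPM in CMS7KO and 3.80 to 5.41 CPM in ACRE, B cell markers to 26.6 to 40.5 CPM in CMS7KO and 13.7 to 29.1 CPM in ACRE, and plasmacytoid dendritic cell markers to 11.99 to 21.3 CPM in CMS7KO and 13.6 to 20.7 CPM in ACRE. Most of each sum came from 1 gene, Csf3r, Ighm and Smim5 respectively. Csf3r had 7.61 to 10.2 CPM in CMS7KO and 3.19 to 4.16 CPM in ACRE. The other neutrophil markers overlapped between the groups, with at most 69 reads in a library. Among the defining markers only Ly6g, a neutrophil marker, was at 0 in every library. The part of these cell types in the members' values was not tested, and in whole-heart RNA fewer cells of a type and less RNA per cell cannot be told apart.

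**Figure D4:**
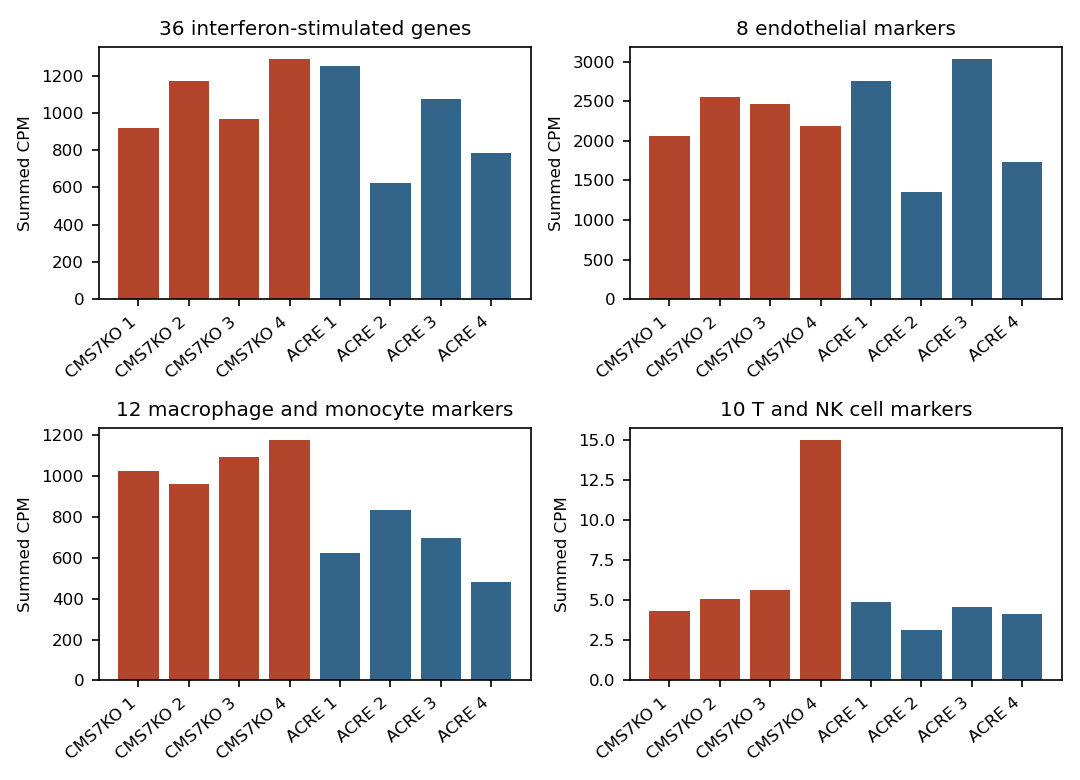
Summed TMM-scaled CPM per library of the 36 members and of the marker lists named above the panels, CMS7KO left and ACRE right, on axes that start at 0. The member sum is lowest in ACRE 2 (622 CPM), where the endothelial sum is also lowest (1358 CPM), and the T and NK cell sum is highest in CMS7KO 4 (15.02 CPM).

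CMS7KO 4 was the highest of the CMS7KO libraries for 25 of 36 members, compared with 26.6% of all genes, and the highest of all 8 for 17, compared with 10.9%. It reached at least 1.5 times the next CMS7KO library for 5 members, Igtp, Zbp1, Oas3, Mx1 and Ifi47, compared with 4.62% of all genes. Irgm2, Iigp1 and Cxcl9, typical targets of interferon gamma outside the 36 and named after their values were seen, were also highest in that library. Of the other genes of this kind, Gbp4, Gbp5, Gbp8, Tgtp1, Tgtp2 and Cxcl10 were highest there too, whereas Gbp9 and Gbp6 were not. Gbp9 was lower in CMS7KO 4, at 76.5 CPM, than in the other CMS7KO libraries, at 79.9 to 97.7 CPM. Gbp6 was at 22.9 CPM in CMS7KO 4 but highest in ACRE 4, at 26.0 CPM. Irgm2, the neighbour of Igtp, had 25.2, 32.8, 30.4 and 72.6 CPM in CMS7KO libraries 1 to 4, against 26.8, 25.8, 26.3 and 42.3 CPM in ACRE libraries 1 to 4. Iigp1, another immunity-related GTPase gene, had 43.1, 36.4, 40.4 and 123 CPM in CMS7KO libraries 1 to 4, against 52.5, 25.8, 44.7 and 69.5 CPM in ACRE libraries 1 to 4. Cxcl9, a chemokine that draws T cells, had 7.68, 11.3, 6.89 and 29.8 CPM in CMS7KO libraries 1 to 4, against 12.5, 5.50, 10.1 and 6.18 CPM in ACRE libraries 1 to 4. ACRE 4 was the second highest library in Irgm2 and Iigp1 but not in Cxcl9. Markers of T and NK cells summed to 4.35, 5.09, 5.62 and 15.02 CPM in CMS7KO libraries 1 to 4, against 4.91, 3.15, 4.59 and 4.15 CPM in ACRE, and CMS7KO 4 was highest for 8 of the 10. These markers had few reads, and only 6 of the 10 passed the filter on low counts. In CMS7KO 4, Cd4 had the most, 64 reads, while Cd3d had 15, Cd3g 9 and Ncr1 3. The neutrophil sum was also highest in CMS7KO 4, at 18.7 CPM, compared with 8.19 to 10.99 CPM in the other CMS7KO libraries. Only 2 of the 6 neutrophil markers passed the filter. The same library had the highest macrophage and monocyte sum, 1177 CPM, with 9 of the 12 markers highest there, and the highest mitochondrial share, 23.5%. Ifng itself had 3 reads in CMS7KO 4, 1 in ACRE 4 and 0 in the other libraries. CMS7KO 4 and ACRE 4 were also the only libraries with Xist above 1 CPM. The part of these cell types, of the mitochondrial share or of sex in these values was not tested.

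Upstream of the members, interferon transcripts were close to undetectable. Ifnb1, Ifna1, Ifna2, Ifna4, Ifna5, Ifnk and Ifne had no read in any library, which allows up to 3 reads, or 0.156 to 0.290 CPM, per library and covers counting error only. Ifnl2 had 4 and Ifnl3 8 reads over the 8 libraries. Of the 100 further genes of the pathway that were listed, 98 had a row and 84 were tested: 62 were estimated above 0 and 22 below, with a median of 0.21. edgeR called 0 of them (0.0179% of all genes were called higher and 0.0179% lower), limma voom 0 and DESeq2 1, Ptpn6 (log2 fold change 1.11, DESeq2 adjusted p = 0.00501). The smallest adjusted p by edgeR was 0.184, while 6 were higher and 2 lower at an unadjusted p below 0.05, compared with 7.12% and 8.20% of all genes. All CMS7KO libraries were above all ACRE libraries for 5 and below them for 2, compared with 5.41% and 4.18%.

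The receptor subunits were present in every library and none was called. Ifnar1, of the type I receptor, had 55.4, 67.4, 61.3 and 51.5 CPM in CMS7KO libraries 1 to 4, against 57.0, 54.3, 59.9 and 53.3 CPM in ACRE libraries 1 to 4; the log2 fold change was 0.069 (SE 0.14, adjusted p = 0.831). Its values overlapped closely. Ifnar2, the other type I subunit, had 31.9, 33.5, 31.0 and 33.2 CPM in CMS7KO libraries 1 to 4, against 35.5, 19.6, 26.5 and 24.5 CPM in ACRE libraries 1 to 4; the log2 fold change was 0.29 (SE 0.19, adjusted p = 0.454). Ifngr1, the ligand-binding chain for interferon gamma, had 94.3, 117, 111 and 105 CPM in CMS7KO libraries 1 to 4, against 106, 92.9, 123 and 73.9 CPM in ACRE libraries 1 to 4; the log2 fold change was 0.11 (SE 0.19, adjusted p = 0.794). In both, ACRE 2 or ACRE 4 was the lowest library. Ifngr2, the partner of Ifngr1, had 74.7, 48.9, 56.4 and 65.5 CPM in CMS7KO libraries 1 to 4, against 56.0, 175, 53.6 and 156 CPM in ACRE libraries 1 to 4. ACRE 2 and ACRE 4 were far above the other 6 libraries here, the opposite of their place among the members, and the log2 fold change was -0.84 (SE 0.40, adjusted p = 0.341). Ifnlr1, of the type III receptor, had 10.7, 11.4, 12.5 and 9.72 CPM in CMS7KO libraries 1 to 4, against 7.66, 12.2, 6.97 and 7.14 CPM in ACRE libraries 1 to 4; the log2 fold change was 0.40 (SE 0.22, adjusted p = 0.398). Its partner Il10rb, shared with the interleukin-10 receptor, had 63.9, 51.5, 56.7 and 64.4 CPM in CMS7KO libraries 1 to 4, against 63.2, 71.6, 57.2 and 99.9 CPM in ACRE libraries 1 to 4; the log2 fold change was -0.30 (SE 0.19, adjusted p = 0.452). The groups overlapped in both.

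Jak1 and Tyk2 separated the groups, in opposite directions, without passing the adjusted threshold. Jak1 had 110.3, 118, 106 and 116 CPM in CMS7KO libraries 1 to 4, against 129, 145, 130.1 and 199.9 CPM in ACRE libraries 1 to 4; the log2 fold change was -0.42 (SE 0.18, adjusted p = 0.323), with every CMS7KO library below every ACRE library. Tyk2 had 44.4, 53.2, 54.6 and 45.6 CPM in CMS7KO libraries 1 to 4, against 39.8, 33.9, 44.3 and 31.8 CPM in ACRE libraries 1 to 4; the log2 fold change was 0.40 (SE 0.16, adjusted p = 0.312), with every CMS7KO library above every ACRE library. Irf3, the factor that starts interferon transcription after sensing, had 66.7, 76.0, 72.2 and 68.4 CPM in CMS7KO libraries 1 to 4, against 79.9, 41.2, 63.1 and 36.01 CPM in ACRE libraries 1 to 4; the log2 fold change was 0.37 (SE 0.24, adjusted p = 0.46). Jak1 overlaps Raver2, and Irf3 overlaps Bcl2l12, on the other strand, so their counts are uncertain in the same way as those above. Ifnar2 and Il10rb both overlap the protein-coding gene Gm21970 on the same strand, so their counts are uncertain too.

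**Figure D5:**
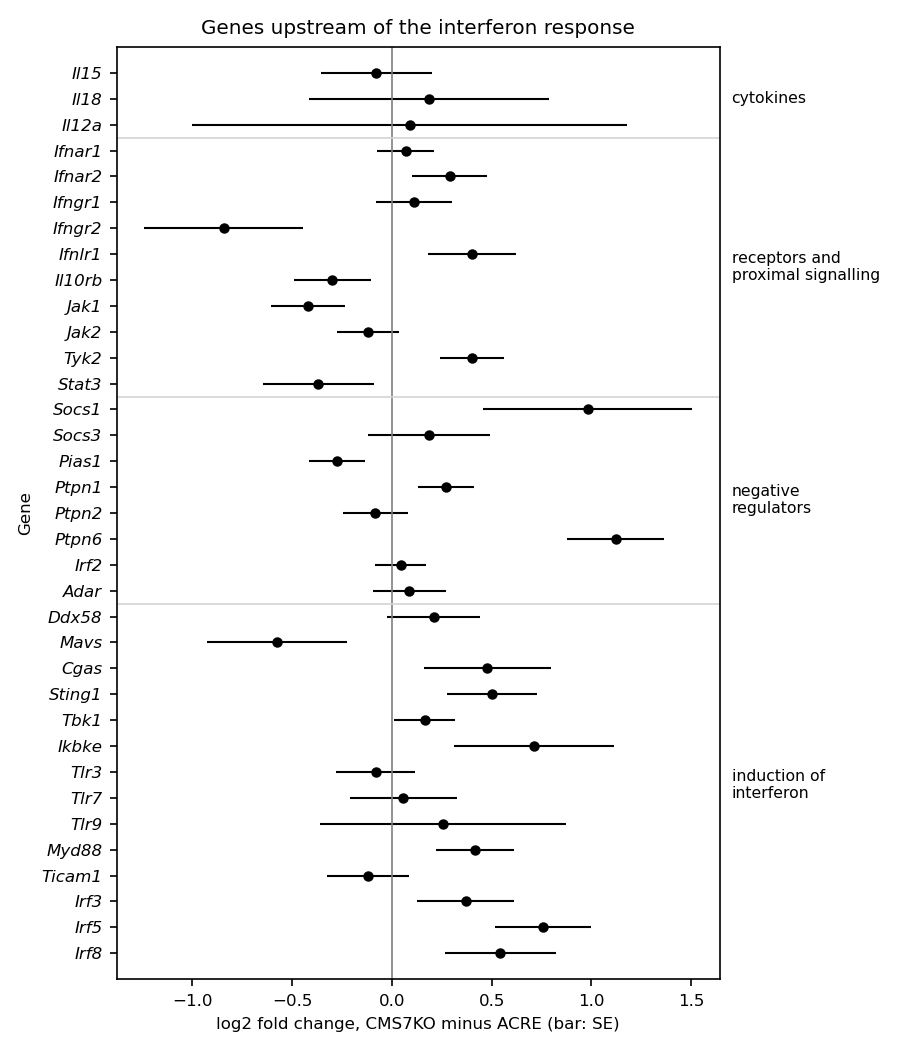
log2 fold change (CMS7KO minus ACRE, bars are SE) of genes that act upstream of the interferon-stimulated genes, grouped as cytokines, receptors and proximal signalling, negative regulators and inducers of interferon. Ptpn6 and Tyk2 lie above 0 and Jak1 and Ifngr2 below, and none passed an adjusted p of 0.05 by edgeR.

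Among 8 tested negative regulators, 6 were estimated above 0 and 2 below, with a median of 0.14. Ptpn6, the phosphatase SHP-1 of blood cells, had 19.0, 21.1, 20.1 and 24.5 CPM in CMS7KO libraries 1 to 4, against 13.2, 8.99, 10.9 and 5.99 CPM in ACRE libraries 1 to 4. Every CMS7KO library was above every ACRE library; the log2 fold change was 1.12 (SE 0.24, adjusted p = 0.184), the smallest p among the pathway genes (unadjusted p = 0.00105). The macrophage sums given above were also higher in every CMS7KO library. Of all 8 libraries, both Ptpn6 and the macrophage sum were highest in CMS7KO 4 and lowest in ACRE 4. Among ACRE libraries Ptpn6 was highest in ACRE 1 and the macrophage sum in ACRE 2. The part of macrophages in the Ptpn6 values was not tested. Pias1, an inhibitor of Stat proteins, had 25.1, 26.1, 26.9 and 27.3 CPM in CMS7KO libraries 1 to 4, against 28.7, 29.9, 30.8 and 38.6 CPM in ACRE libraries 1 to 4, with every CMS7KO library lower; the log2 fold change was -0.28 (SE 0.14, adjusted p = 0.363). Of 14 genes that induce interferon, 11 were above 0 and 3 below, with a median of 0.31. Irf5, a factor of macrophages and B cells that overlaps Tnpo3 on the other strand, had 11.7, 16.8, 16.6 and 19.5 CPM in CMS7KO libraries 1 to 4, against 8.54, 11.6, 11.1 and 6.66 CPM in ACRE libraries 1 to 4; the log2 fold change was 0.76 (SE 0.24, adjusted p = 0.27), with every CMS7KO library higher.

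Of 48 tested interferon-stimulated genes outside the 36, 37 were estimated above 0 and 11 below, with a median of 0.26, close to the 0.23 of the members. Parp10, a mono-ADP-ribosyltransferase, had 45.7, 46.9, 50.4 and 53.5 CPM in CMS7KO libraries 1 to 4, against 41.3, 32.9, 35.9 and 29.5 CPM in ACRE libraries 1 to 4; the log2 fold change was 0.49 (SE 0.15, adjusted p = 0.261). Gbp4 had 60.8, 61.1, 65.0 and 73.4 CPM in CMS7KO libraries 1 to 4, against 58.1, 21.1, 54.8 and 34.7 CPM in ACRE libraries 1 to 4; the log2 fold change was 0.62 (SE 0.28, adjusted p = 0.331). Both had every CMS7KO library higher, but Parp10 overlaps Plec, and Gbp4 overlaps Gbp8 and Gbp9, on the same strand, so their counts are uncertain. Ifitm2, a restriction factor of viral entry, had 72.1, 99.9, 90.2 and 93.6 CPM in CMS7KO libraries 1 to 4, against 67.7, 44.99, 83.1 and 34.2 CPM in ACRE libraries 1 to 4; the log2 fold change was 0.63 (SE 0.27, adjusted p = 0.32). Ifi205, of the DNA-binding p200 family, had 4.78, 5.14, 3.03 and 6.43 CPM in CMS7KO libraries 1 to 4, against 8.54, 10.1, 12.1 and 6.37 CPM in ACRE libraries 1 to 4; the log2 fold change was -0.94 (SE 0.30, adjusted p = 0.269). The groups overlapped in both genes. Ifitm2 overlaps the protein-coding gene Gm45717 on the same strand, so its counts are uncertain. Gbp8, at low counts, had 0.580, 1.04, 1.39 and 6.58 CPM in CMS7KO libraries 1 to 4, against 0.351, 0.268, 1.01 and 0.579 CPM in ACRE libraries 1 to 4, so its log2 fold change of 1.89 (SE 0.58, adjusted p = 0.262) had its highest value in CMS7KO 4.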

How the data were processed

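The deposited table holds whole-number read counts per gene, which the authors did not normalise as far as the values show, and a gene length in bases; HTSeq 0.6.1, TopHat2 2.0, Cufflinks 2.1.1, CASAVA, GRCm38.p6 and mm10 are listed by the submitters' processing notes, with no role given. Of 52073 identifiers shared with GENCODE M21, 2.85% had the same start, so coordinates are printed as the table gives them. Counts were tested with edgeR 4.0.16 (R 4.3.3: filterByExpr, TMM factors 0.803 to 1.13, robust quasi-likelihood F test, sex label as covariate, 5 residual degrees of freedom, Benjamini-Hochberg over 16780 genes, threshold 0.05). The biological coefficient of variation was 30.3%. Log2 fold changes are CMS7KO minus ACRE, and their SE is the estimate divided by the square root of F. CPM are counts per 1000000 reads in genes, scaled by TMM. DESeq2 1.42.0 and limma voom 3.58.1 were alternatives. No pair of libraries agreed within counting noise (smallest chi-square per degree of freedom 17.5). Because both libraries 3 go against their sex label, effects were not split by sex.

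The members and gene lists were chosen with earlier results of these data known. Given in full by rule were the 12 members with the smallest p, the 6 with the highest mean CPM per kb, and the pathway genes with an unadjusted p below 0.05 or groups that do not overlap, plus the receptors, Jak1, Tyk2 and Irf3. In addition, 1 gene of the pathway lists is not reported here. Alternatives were other scalings, filters and tools, no covariate, a replicate block, and leaving out libraries. Precision is limited by 4 libraries per genotype, with 12920435 to 17199600 reads each.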

Additional observations from a re-analysis of the deposited data

Results flagged for a closer look

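A library was noted where its gap to the nearest library of its own group, divided by the group's whole range, exceeded Dixon's critical value for 4 libraries. Chance marks about 1 in 20 groups when values are normally distributed. The rule was applied to CPM without a log scale, and the share marked among all genes was not computed. The counts below are therefore not shown to be particular to these genes. Of the 36 members, 3 were marked within CMS7KO and 1 within ACRE, where 1.8 each would be marked at 1 in 20. Igtp stood at 80.2 CPM in CMS7KO 4, with the next CMS7KO library at 16.9 CPM, and Mx1 at 10.9 CPM in CMS7KO 4, with the next at 5.50 CPM. Mx2 was at 6.85 CPM in CMS7KO 2, with the next at 4.99 CPM. Irgm1 was at 26.2 CPM in ACRE 2, with the next ACRE library at 36.9 CPM.

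Of the 84 pathway genes outside the members, 10 were marked within CMS7KO and 3 within ACRE, where 4.2 each would be marked at 1 in 20. In 9 of the 10 the marked library was CMS7KO 4, and it was high. These were the GTPase genes Iigp1 at 123 CPM, Irgm2 at 72.6 CPM, Gbp5 at 42 CPM, Gbp6 at 22.9 CPM (with ACRE 4 higher, at 26.0 CPM) and Gbp8 at 6.58 CPM. The others were Ifit3b, a close copy of Ifit3, at 10.7 CPM, Ifitm1 at 9.04 CPM, the feedback inhibitor Socs1 at 4.33 CPM and the T cell chemokine Ccl5 at 4.41 CPM. Oas1b was low in CMS7KO 1, at 6.59 CPM. Within ACRE, Irgm2 was high at 42.3 CPM and Il15, a cytokine of NK cells, at 23.9 CPM in ACRE 4, and Ifnlr1 was high at 12.2 CPM in ACRE 2. Genes that share reads, such as Igtp with Irgm2, are not separate observations.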

How the results depend on the processing

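Precision is set by 4 libraries a group and a biological coefficient of variation of 30.3%. The median of the 36 members was 0.22 to 0.36 under the other scalings, filters and tools and with the replicate block, and with each library left out in turn it ranged from 0.06 (without ACRE 2) to 0.48 (without ACRE 1). Using library totals shifted the median of all genes to 0.14. No member was called with any single library left out. Without any filter on low counts, 456 of all genes were called higher and 912 lower, and Ifi27l2a was the 1 member called (0.73, adjusted p = 0.019). DESeq2 called 278 genes higher and 206 lower, the fit without the sex label 3 and 5. Leaving out single libraries gave 0 to 10 higher and 0 to 7 lower; the counts of 0 came without CMS7KO 1, CMS7KO 2 or CMS7KO 3, where 2173, 1531 and 1487 genes had an unadjusted p below 0.05, and the highest came without ACRE 2. Without ACRE 2 and ACRE 4 there were 86 and 89, without ACRE 3 and CMS7KO 3, whose sex labels were contradicted, 0 and 1 (2498 at an unadjusted p below 0.05), and without ACRE 2, ACRE 4 and CMS7KO 4, chosen after seeing the data, 133 and 148, with 1 member called lower and a member median of -0.20. With single libraries left out, 0 to 3 members lay wholly above (6.36% to 8.61% of all genes) and 0 to 1 wholly below (5.15% to 7.45%). Without ACRE 3 and CMS7KO 3, 1 lay above (9.72% of genes), without ACRE 2 and ACRE 4, 4 lay below (12.2%), and without those and CMS7KO 4, 7 lay below (15.8%).

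Same-numbered libraries are not paired by the labels, and their deviations from the group means correlated at -0.17, -0.19, 0.12 and 0.21 for numbers 1 to 4. The replicate block called 1 gene higher and 2 lower and 0 members. Of numbers 1 to 4, only number 4 correlated best with its own number. Counting only bases before the start, 13 of 27 members (48.1%) held the ISRE-type pattern, compared with 3.46% of genes.

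Log2 fold changes that changed sign, none of them called where the sign changed, were, without ACRE 2 and ACRE 4, Bst2 -0.068, Dhx58 -0.047, Gbp2 -0.066, Herc6 -0.089, Ifi35 -0.081, Ifi44 -0.34, Ifih1 -0.17, Irf7 -0.32, Irf9 -0.13, Isg15 -0.064, Oas2 -0.011, Oas3 -0.13, Parp14 -0.14, Usp18 -0.051, Xaf1 -0.23 and Zbp1 -0.046. Without CMS7KO 4 as well, they were Bst2 -0.21, Dhx58 -0.14, Gbp2 -0.16, Gbp3 -0.091, Gbp7 -0.045, Herc6 -0.11, Ifi35 -0.13, Ifi44 -0.44, Ifih1 -0.26, Ifit1 -0.26, Igtp -0.37, Irf1 -0.0024, Irf7 -0.41, Irf9 -0.14, Irgm1 -0.18, Isg15 -0.35, Oas2 -0.076, Oas3 -0.72, Oasl2 -0.027, Parp14 -0.20, Stat2 -0.0027, Usp18 -0.23, Xaf1 -0.18 and Zbp1 -0.80. Without ACRE 3 and CMS7KO 3 they were Cmpk2 0.12, Ifit3 0.12, Rsad2 0.054 and Rtp4 0.32. Library totals gave Cmpk2 0.086, Ifit3 0.087, Rtp4 0.088 and Trim25 0.031, upper-quartile factors Cmpk2 0.027, Ifit3 0.027 and Rtp4 0.039, limma voom Cmpk2 0.036, Oas3 -0.041 and Rtp4 0.051, the replicate block Cmpk2 0.049, Oas3 -0.020 and Rtp4 0.068, RLE factors Ifi44 -0.0026, DESeq2 Ifi44 -0.0028 and no sex label Rtp4 0.0039. With single libraries left out, the members that changed sign ranged as follows: Irf7 -0.13 to 0.76, Ifih1 -0.14 to 0.17, Zbp1 -0.43 to 0.82, Trim25 -0.24 to 0.048, Ifit1 -0.034 to 0.40, Ifit3 -0.29 to 0.28, Oas3 -0.52 to 0.49, Oasl1 -0.63 to 0.15, Rsad2 -0.37 to 0.15, Cmpk2 -0.22 to 0.23, Usp18 -0.081 to 0.34, Irgm1 -0.047 to 0.39, Igtp -0.38 to 0.68, Ifi44 -0.30 to 0.35, Rtp4 -0.22 to 0.26 and Xaf1 -0.068 to 0.48. Apart from the libraries left out, the cause was not tested.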
